A study of Mus musculus with 4 samples.

Results

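Proliferating cells carry transcripts of 2 gene sets that peak at different phases of the cell cycle, one for DNA replication and one for mitosis, and 52 such genes were followed here in regulatory T (Treg) cells. They were taken by symbol from a named list, with the transcript of highest mean where a gene had several, and split into 21 replication genes of the G1/S phase and 31 mitotic genes of the G2/M phase. All 52 were found among the 14193 genes measured. The RNA came from splenic Treg cells of C57BL/6 mice, with 2 libraries from mice with an Nsd2 conditional knockout in Treg cells (cKO) and 2 libraries from wild-type (WT) mice. Each library pooled the RNA of at least 3 mice, so mice within a pool cannot be told apart. The sources used here do not give the age of the mice, nor the Cre driver and floxed exons behind the conditional allele. Nsd2 (listed under its older symbol Whsc1) is a histone methyltransferase that dimethylates lysine 36 of histone H3.

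Replication genes are switched on before S phase, when cyclin-dependent kinases release E2F factors from the retinoblastoma proteins. Mitotic genes are switched on later by B-Myb and FoxM1 together with the MuvB core, which in resting cells belongs to the repressive DREAM complex and binds a short promoter element, the cell cycle homology region. Treg cells turn over more than other CD4 T cells in the steady state, so transcripts of both sets are usually detected in Treg cells taken from the spleen. In bulk RNA, fewer cycling cells and less RNA per cycling cell cannot be told apart.

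The libraries held about 19180000 and 21222000 reads for cKO and 19485000 and 19121000 for WT, as read from the steps in low values. Values are RPKM, read numbers scaled by transcript length and by library size. Nsd2 itself stood at 3.46 and 4.27 RPKM in cKO against 6.82 and 7.44 RPKM in WT, a log2 fold change of -0.74 (limma, unadjusted p = 0.00305). Foxp3, the defining Treg factor, was at 145 and 113 RPKM in cKO and 144 and 128 RPKM in WT. Differences were tested with limma on log2(RPKM + 1) over the 10688 genes whose mean reached 1 RPKM, and fold changes of low genes are understated on that scale. No gene passed a Benjamini-Hochberg adjusted p of 0.05 (0% called), and 21 to 66 genes passed it when each library in turn was left out. Before adjustment, 332 genes (3.11%) had an unadjusted p under 0.05 and 2.11% had it with cKO higher. With 2 libraries a group, an exact permutation test over libraries cannot give a two-sided p under 0.33. The p-values measure the spread between pools, and nothing in the labels says how far the pools of a group were independent.

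The median fold of cKO over WT was larger for the mitotic genes than for the replication genes and small for both, and no test was made over either set. Among the 30 mitotic genes tested, 18 (60%) had both cKO libraries above both WT libraries (called separated from here on), against 5 of 21 replication genes (23.8%) and 17.4% of all genes tested. No gene of either set had both cKO libraries below both WT libraries, against 9.06% of all genes. The median log2 fold change was 0.27 over the mitotic genes (median fold 1.27) and 0.07 over the replication genes (median fold 1.08), beside 0.03 over all genes tested. A log2 fold change above 0 was seen for 29 of 30 mitotic and 20 of 21 replication genes, against 59.2% of all genes. With 1 library left out, the count above 0 was 23 to 29 of 30 mitotic genes, lowest without cKO replicate 2. For replication genes it was 14 to 17 of 21, lowest without WT replicate 2. No gene of either set passed the adjusted test: limma's adjusted p was 0.9998 for each of the 51 that were tested, and 3 of them (Tk1, Top2a and Cdc20) had an unadjusted p under 0.05, all with cKO higher. Bub1, a kinase of the spindle checkpoint, was the one member below the filter on low values and has no test. The excess of mitotic over replication genes rested largely on cKO replicate 2: without it the medians were 0.15 and 0.09, and their difference was 0.06 in place of 0.20. Without WT replicate 2 the difference was 0.12, and the replication median was 0.12 without WT replicate 1 and 0.16 without cKO replicate 1.

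**Figure D1:**
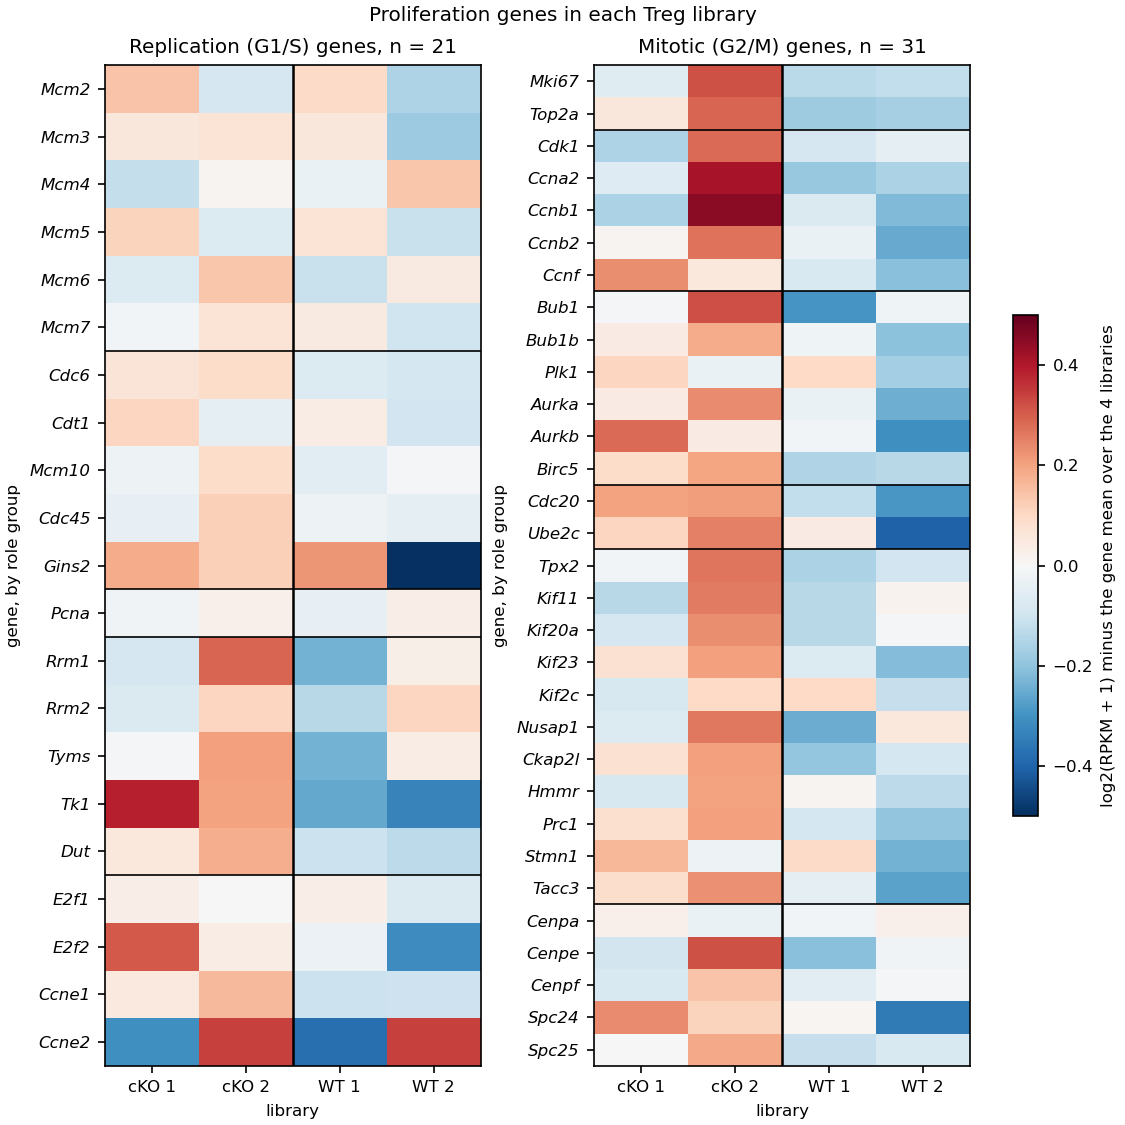
Heat map of each gene's log2(RPKM + 1) in each library minus its mean over the 4 libraries, with cKO libraries left of WT libraries, genes grouped by phase and role, and colours that saturate at 0.5 on either side. The cKO replicate 2 column held the highest value for 24 of 30 tested mitotic genes and 11 of 21 replication genes, against 31.8% of all genes tested.

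Promoters of the 2 sets held different motifs, and a few are printed to show them. RefSeq windows on GRCm38.p6, from 250 bases before to 50 bases after the start of transcription, were matched for 43 of the 52 genes, 25 mitotic and 18 replication, and a gene with more than 1 window counted if any of them held a match. The cell cycle homology region was searched as TTTGAA on both strands. It lay in 19 of 25 mitotic genes (76%) and 3 of 18 replication genes (16.7%), against 14% of the 8235 genes tested that had a window and 20.2% of all 27025 genes with one. The CCAAT box, bound by NF-Y, was searched as CCAAT on both strands. It lay in 21 mitotic genes (84%) and 11 replication genes (61.1%), against 43.1% of the genes tested. E2F sites were searched as TTTCCCGC, TTTGGCGC, TTTCGCGC and TTTGCCGC on both strands, and none of the motifs is contained in a motif of another kind. E2F matches lay in 7 of 18 replication genes (38.9%) and in 1 of 25 mitotic genes (4%), Cdk1, against 5.06% of the genes tested. A match describes the letters only.

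The sequences are the 250 bases before the start for 4 genes, 1 replication gene with E2F matches and 3 mitotic genes with matches to TTTGAA, in lower case with matches on either strand in capitals (ATTGG and TTCAAA are matches on the other strand). They are Mcm6 (chr1:128359706-128359955, minus strand), Cdc20 (chr4:118437344-118437593, minus strand), Top2a (chr11:99024190-99024439, minus strand) and Ube2c (chr2:164769679-164769928, plus strand), from RefSeq on GRCm38.p6.
Mcm6: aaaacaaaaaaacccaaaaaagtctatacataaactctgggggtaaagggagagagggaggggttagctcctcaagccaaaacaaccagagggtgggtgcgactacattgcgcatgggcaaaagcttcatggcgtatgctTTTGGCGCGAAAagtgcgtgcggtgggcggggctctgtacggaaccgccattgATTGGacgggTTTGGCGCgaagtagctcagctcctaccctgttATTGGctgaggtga
Cdc20: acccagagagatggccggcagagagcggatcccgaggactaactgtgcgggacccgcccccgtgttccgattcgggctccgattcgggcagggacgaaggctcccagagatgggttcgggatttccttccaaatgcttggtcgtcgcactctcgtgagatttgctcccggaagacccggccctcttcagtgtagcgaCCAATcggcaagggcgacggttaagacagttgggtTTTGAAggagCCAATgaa
Top2a: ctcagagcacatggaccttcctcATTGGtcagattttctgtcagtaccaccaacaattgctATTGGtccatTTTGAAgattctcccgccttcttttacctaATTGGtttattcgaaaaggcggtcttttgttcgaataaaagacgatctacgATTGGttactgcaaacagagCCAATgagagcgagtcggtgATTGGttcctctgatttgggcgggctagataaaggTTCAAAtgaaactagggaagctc
Ube2c: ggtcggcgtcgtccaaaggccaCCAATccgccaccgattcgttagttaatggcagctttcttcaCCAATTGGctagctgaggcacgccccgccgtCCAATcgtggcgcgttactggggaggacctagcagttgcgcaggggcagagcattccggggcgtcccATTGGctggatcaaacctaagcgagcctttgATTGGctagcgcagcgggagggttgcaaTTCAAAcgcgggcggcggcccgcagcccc
Mcm6 held 3 E2F matches, of which 2 on opposite strands overlap at -110 and -106 from the start, and no TTTGAA. The TTTGAA match of Cdc20 began 18 bases before the start, the nearer one of Top2a 23 bases before it and that of Ube2c 29 bases before it. Each of these mitotic stretches also held at least 1 CCAAT match farther upstream, and in Ube2c a pair on opposite strands overlap. Within the mitotic genes, the median log2 fold change was 0.26 over the 19 genes tested with TTTGAA and 0.29 over the 5 without it, with no test made.

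**Figure D2:**
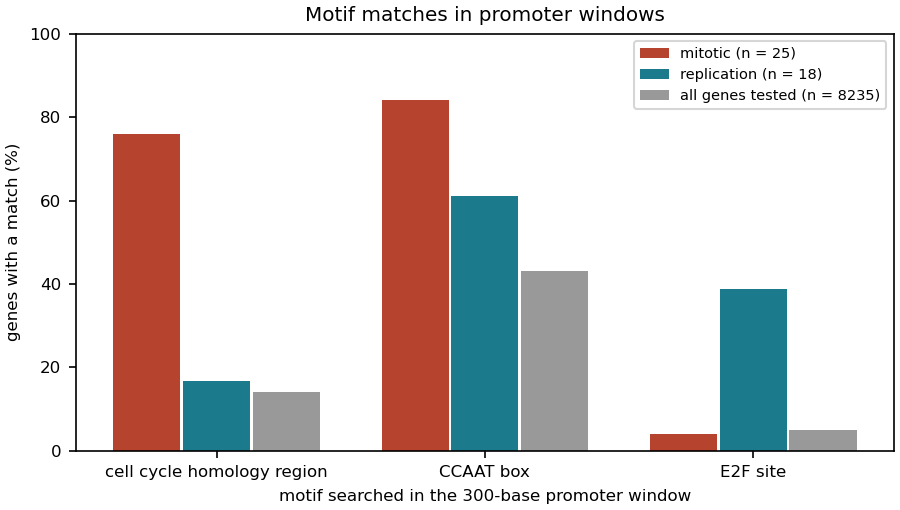
Percent of genes with a match to each motif in a promoter window of 300 bases (bars, from 0), for mitotic genes, replication genes and all genes tested. The cell cycle homology region lay in 76% of mitotic genes and E2F sites in 38.9% of replication genes, against 14% and 5.06% of all genes tested.

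The MCM helicase, which unwinds DNA at replication forks as a ring of 6 subunits, was at near-equal levels in cKO and WT. None of its 6 genes had both cKO libraries above both WT libraries, against 17.4% of all genes tested. Of the 6 log2 fold changes, 5 lay above 0 (59.2% of all genes), and the median was 0.06. On leaving out WT replicate 2 it was -0.02 with 2 of 6 above 0, and on leaving out WT replicate 1 it was 0.13. Mcm6 (chr1:128331575-128359705), the most abundant of them, stood at 32.7 and 37.9 RPKM in cKO against 31.7 and 35.5 RPKM in WT. Its groups overlapped, with the highest value in cKO replicate 2, and the log2 fold change was 0.07 ± 0.14 (SE; 95% interval -0.28 to 0.41; limma, unadjusted p = 0.643). Mcm3 was at 20.9 and 21.1 RPKM in cKO against 20.9 and 17.6 RPKM in WT, where WT replicate 2 alone was low. Its log2 fold change was 0.12 ± 0.13 (limma, unadjusted p = 0.397). Mcm4 ran the other way, at 20.0 and 22.0 RPKM in cKO against 21.3 and 24.1 RPKM in WT, and had the lowest log2 fold change of the replication genes, -0.10.

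Genes that load the helicase and convert it to a working fork were likewise close between groups, with a median log2 fold change of 0.08. All 5 lay above 0 (59.2% of all genes tested did), or 3 of 5 without WT replicate 2. Cdt1, which loads MCM onto origins, had 18.1 and 16.2 RPKM in cKO against 17.2 and 15.6 RPKM in WT, a log2 fold change of 0.06 ± 0.13 with overlapping groups (limma, unadjusted p = 0.653). Cdc6, its loading partner, was at 1.39 and 1.44 RPKM in cKO against 1.18 and 1.15 RPKM in WT. It was the only gene of the 5 in this group that was separated (20%), near the 17.4% of all genes tested. Gins2, a subunit of the GINS complex of the active helicase, was at 4.16 and 3.94 RPKM in cKO against 4.29 and 2.16 RPKM in WT. WT replicate 2 set its fold of 1.25 (log2 fold change 0.30 ± 0.26; limma, unadjusted p = 0.288), and without that library the log2 fold change was -0.07. Mcm10 and Cdc45 ranged from 1.32 to 1.57 RPKM and from 2.90 to 3.38 RPKM over the 4 libraries, with overlapping groups.

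Pcna (chr2:132249286-132253180), the sliding clamp that holds DNA polymerase on its template, was the most abundant of the 52 genes. It stood at 83.2 and 85.9 RPKM in cKO and 82.0 and 86.2 RPKM in WT, with both WT values outside the cKO pair. The group means were 84.5 ± 1.88 RPKM in cKO and 84.1 ± 2.92 RPKM in WT (SD, n = 2 each), and the log2 fold change was 0.01 ± 0.12, with an interval of -0.29 to 0.30. Its sign turned with median-of-ratios scaling (-0.03).

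Enzymes of deoxynucleotide supply had a median log2 fold change of 0.21 over 5 genes. All lay above 0 (59.2% of all genes tested did), or 4 of 5 with median-of-ratios scaling. The median was 0.07 without WT replicate 1 and 0.09 without cKO replicate 2, each with 4 of 5 above 0, and 0.33 without WT replicate 2. The largest difference among all members tested lay here, in Tk1 (chr11:117815519-117826087), the thymidine kinase of the salvage pathway. Tk1 had 14.7 and 12.8 RPKM in cKO against 9.06 and 8.51 RPKM in WT, so both cKO libraries were well clear of both WT libraries. The means were 13.7 ± 1.31 RPKM in cKO and 8.78 ± 0.39 RPKM in WT (SD, n = 2 each), a fold of 1.56 and a log2 fold change of 0.59 ± 0.13 (95% interval 0.26 to 0.92; limma, unadjusted p = 0.00496, adjusted p = 0.9998). An exon of Tk1 overlaps one of Afmid on the other strand, and the sources used here do not say whether counting used strand. Afmid was at 8.83 and 9.36 RPKM in cKO against 8.20 and 6.83 RPKM in WT. Dut, which removes dUTP, was also above WT in both cKO libraries, at 10.6 and 11.7 RPKM in cKO against 9.39 and 9.23 RPKM in WT. The ribonucleotide reductase subunits overlapped between groups: Rrm1 had 9.82 and 13.0 RPKM in cKO against 8.72 and 10.7 RPKM in WT, and Rrm2 had 9.33 and 10.7 RPKM in cKO against 8.89 and 10.7 RPKM in WT. In both genes the replicate 2 library of each genotype was above its replicate 1, and Tyms, the thymidylate synthase, showed the same at 2.85 and 3.47 RPKM in cKO and 2.29 and 2.98 RPKM in WT.

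The drivers of S phase entry, E2F factors and E cyclins, had a median log2 fold change of 0.12. Of these genes 4 of 4 lay above 0 and 2 of 4 were separated, against 59.2% and 17.4% of all genes tested. The group's median was 0.24 without cKO replicate 1, 0.21 without WT replicate 2, 0.15 without WT replicate 1 and 0.10 without cKO replicate 2. On leaving out cKO replicate 1, 4 of 4 lay above 0, and on leaving out any other library 3 of 4. E2f2, an activating E2F, was at 16.8 and 13.8 RPKM in cKO against 13.1 and 10.6 RPKM in WT, so that its lower cKO value lay just above its higher WT value. The fold was 1.29 and the log2 fold change 0.35 ± 0.16 (limma, unadjusted p = 0.08). E2f1 did not separate, at 2.56 and 2.48 RPKM in cKO against 2.56 and 2.31 RPKM in WT. Ccne1 (cyclin E1) was at 3.94 and 4.35 RPKM in cKO against 3.43 and 3.44 RPKM in WT. Its relative Ccne2 followed the replicate number instead, at 1.05 and 2.22 RPKM in cKO and 0.952 and 2.22 RPKM in WT.

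Mki67 and Top2a, the usual proliferation markers, were both above WT in both cKO libraries, an order that 17.4% of all genes tested had. Their median log2 fold change was 0.30, or 0.15 without cKO replicate 2. Mki67 (chr7:135689784-135716450), which coats mitotic chromosomes, had 11.2 and 14.9 RPKM in cKO against 10.6 and 10.7 RPKM in WT. The WT pair was tight and the cKO pair wide, with cKO replicate 1 just above WT, and the log2 fold change was 0.26 ± 0.16 (fold 1.23; limma, unadjusted p = 0.159). Top2a (chr11:98992947-99024199), the topoisomerase that untangles sister chromatids and whose upstream sequence is printed above, had 13.0 and 15.5 RPKM in cKO against 10.9 and 11 RPKM in WT. Its means were 14.2 ± 1.73 RPKM in cKO and 11 ± 0.0974 RPKM in WT (SD, n = 2 each), a log2 fold change of 0.34 ± 0.14 (95% interval 0.01 to 0.68; limma, unadjusted p = 0.0472). Without cKO replicate 2 the log2 fold change was 0.23 for Top2a and 0.08 for Mki67.

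The mitotic kinase CDK1 and its cyclins, grouped here with Ccnf, had a median log2 fold change of 0.29. Of these genes 5 of 5 lay above 0 and 3 of 5 were separated, against 59.2% and 17.4% of all genes tested. Without cKO replicate 2 the group's median was 0.11, with 3 of 5 above 0. Cdk1 itself (chr10:69335146-69352912) was among those that overlapped, at 1.40 and 2.25 RPKM in cKO against 1.52 and 1.59 RPKM in WT, with cKO replicate 1 the lowest and cKO replicate 2 the highest. Its log2 fold change was 0.13 ± 0.19 (limma, unadjusted p = 0.521), and -0.09 without cKO replicate 2. Ccna2 (cyclin A2, chr3:36564865-36573038) had 5.22 and 7.66 RPKM in cKO against 4.70 and 4.83 RPKM in WT. Its groups did not overlap, the cKO pair was again wide, and the log2 fold change was 0.35 ± 0.19 (fold 1.35; limma, unadjusted p = 0.122). An exon of Ccna2 overlaps one of Exosc9 on the opposite strand. Exosc9 was at 8.20 and 11.8 RPKM in cKO against 7.23 and 8.20 RPKM in WT. Ccnf (cyclin F, part of a ubiquitin ligase) was at 2.90 and 2.44 RPKM in cKO against 2.15 and 1.87 RPKM in WT, a log2 fold change of 0.29 ± 0.15 (limma, unadjusted p = 0.11). Of the B cyclins, Ccnb2 was separated, at 5.26 and 6.47 RPKM in cKO against 5.05 and 4.20 RPKM in WT. Ccnb1 was not, at 1.32 and 2.54 RPKM in cKO against 1.46 and 1.22 RPKM in WT, although its fold of 1.44 was the largest among the mitotic genes tested.

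Mitotic kinases and the chromosomal passenger complex followed the same order. All 5 tested lay above 0 and 4 were separated, against 59.2% and 17.4% of all genes tested. The group's median log2 fold change was 0.28, or 0.18 without cKO replicate 2 and 0.17 without WT replicate 2. Birc5 (survivin, chr11:117849237-117855743), a subunit of the passenger complex, had 6.10 and 6.63 RPKM in cKO against 5.01 and 5.05 RPKM in WT, and both pairs were tight. The log2 fold change was 0.29 ± 0.13 (fold 1.27; limma, unadjusted p = 0.0743). The coefficient of variation of Birc5 within groups, 4.17%, was below its counting error of up to 10.5%, so the tightness says little about reproducibility. Its other transcript was at 2.60 and 2.92 RPKM in cKO against 2.40 and 2.32 RPKM in WT, a fold of 1.17. Aurkb, the kinase of that complex, was at 5.42 and 4.42 RPKM in cKO against 4.22 and 3.26 RPKM in WT, and Aurka, a centrosome kinase, at 3.06 and 3.65 RPKM in cKO against 2.85 and 2.33 RPKM in WT. The checkpoint gene Bub1b was at 3.44 and 3.91 RPKM in cKO against 3.25 and 2.75 RPKM in WT. Plk1, a kinase of mitotic entry and exit, was the one that overlapped, at 4.98 and 4.42 RPKM in cKO against 4.95 and 3.93 RPKM in WT. Bub1, not tested, was at 0.839 and 1.31 RPKM in cKO against 0.508 and 0.819 RPKM in WT.

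Cdc20 and Ube2c, which work with the anaphase-promoting complex to mark cyclin B and securin for destruction, were the role group with the highest median, 0.39 (0.23 without WT replicate 2). Both were separated, against 17.4% of all genes tested. Cdc20 (chr4:118432901-118437343) had 7.99 and 8.04 RPKM in cKO against 6.18 and 5.39 RPKM in WT. The means were 8.01 ± 0.0361 RPKM in cKO and 5.78 ± 0.558 RPKM in WT (SD, n = 2 each), a fold of 1.39 and a log2 fold change of 0.41 ± 0.14 (95% interval 0.08 to 0.75; limma, unadjusted p = 0.0237). An exon of Cdc20 overlaps one of Elovl1 on the opposite strand, which was at 23.7 and 26.2 RPKM in cKO against 24.8 and 24.5 RPKM in WT. Ube2c (chr2:164769929-164772902) had 9.22 and 10.3 RPKM in cKO against 8.75 and 6.17 RPKM in WT, with WT replicate 2 far below the rest. Its log2 fold change was 0.36 ± 0.18 (limma, unadjusted p = 0.0999).

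Spindle proteins formed the largest role group, 11 genes. Of these 11 lay above 0 (10 with median-of-ratios scaling) and 5 were separated, against 59.2% and 17.4% of all genes tested. The group's median log2 fold change was 0.19. Without cKO replicate 2 it was 0.11, with 7 of 11 above 0, and without cKO replicate 1 it was 0.35. The most abundant was Stmn1 (stathmin, chr4:134468320-134473843), which destabilizes microtubules and is not particular to mitosis. Stmn1 had 39.6 and 34.5 RPKM in cKO against 37.7 and 29.7 RPKM in WT, where replicate 1 was above replicate 2 in both genotypes, and its log2 fold change was 0.14 ± 0.16 (limma, unadjusted p = 0.423). Tacc3, which crosslinks spindle microtubules, was separated at 5.55 and 6.23 RPKM in cKO against 4.96 and 4.12 RPKM in WT. Its log2 fold change was 0.32 ± 0.15 (fold 1.30; limma, unadjusted p = 0.0828). The others separated were Tpx2, Kif23, Ckap2l and Prc1. Prc1, which bundles microtubules of the central spindle, had 4.37 and 4.86 RPKM in cKO against 3.78 and 3.43 RPKM in WT. Exons of Prc1 and Tacc3 overlap those of Rccd1 and Tmem129 on the opposite strand. Rccd1 was at 9.05 and 6.87 RPKM in cKO against 6.70 and 5.20 RPKM in WT. Tmem129 was at 8.58 and 7.35 RPKM in cKO against 8.70 and 8.35 RPKM in WT. The motors Kif11, Kif20a and Kif2c overlapped, and Kif11 was at 3.37 and 4.75 RPKM in cKO against 3.37 and 3.87 RPKM in WT.

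Centromere and kinetochore genes had a median of 0.19, with 4 of 5 above 0 and 2 of 5 separated, against 59.2% and 17.4% of all genes. Without cKO replicate 2 that median was 0.03. Cenpa (chr5:30666877-30674837), the histone H3 variant of centromeres, was the most abundant of them and the flattest, at 17.7 and 17.0 RPKM in cKO and 17.2 and 17.7 RPKM in WT. The log2 fold change was -0.00 ± 0.12, with an interval of -0.29 to 0.28. Spc24, of the NDC80 complex that grips microtubules, had 3.59 and 3.21 RPKM in cKO against 2.92 and 2.05 RPKM in WT, a log2 fold change of 0.34 ± 0.18 (limma, unadjusted p = 0.102). Its partner Spc25 was separated as well, at 1.61 and 1.98 RPKM in cKO against 1.41 and 1.48 RPKM in WT. Cenpe and Cenpf overlapped, and in both cKO replicate 2 was the highest library.

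**Figure D3:**
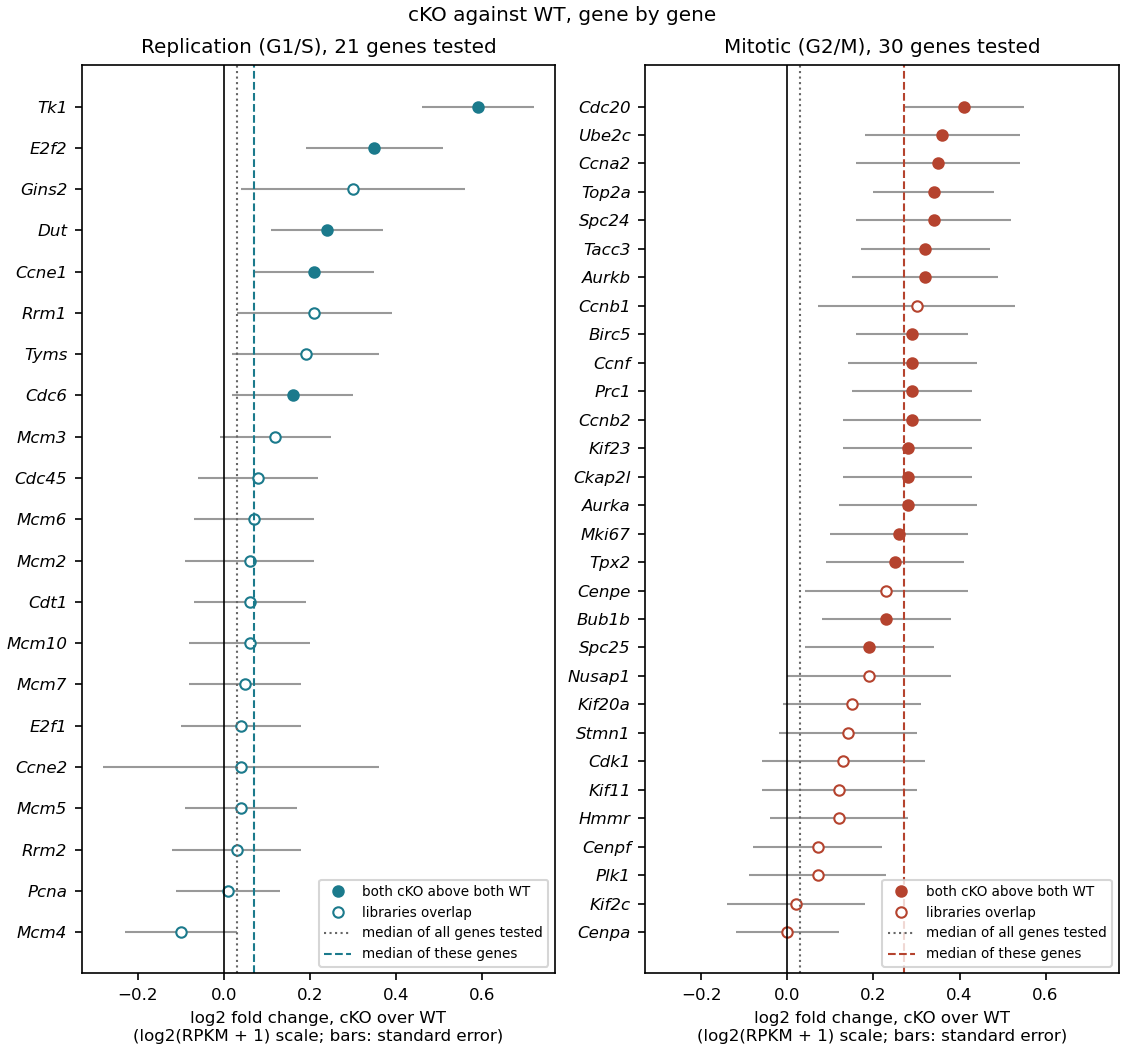
Log2 fold change of cKO over WT on the log2(RPKM + 1) scale for each gene tested, sorted by size, with limma's standard error as bars. Filled points mark genes whose cKO libraries are both above both WT libraries. These are 5 of 21 replication genes (23.8%) and 18 of 30 mitotic genes (60%), against 17.4% of all genes tested. Lines mark the median of each set and of all genes tested.

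**Figure D4:**
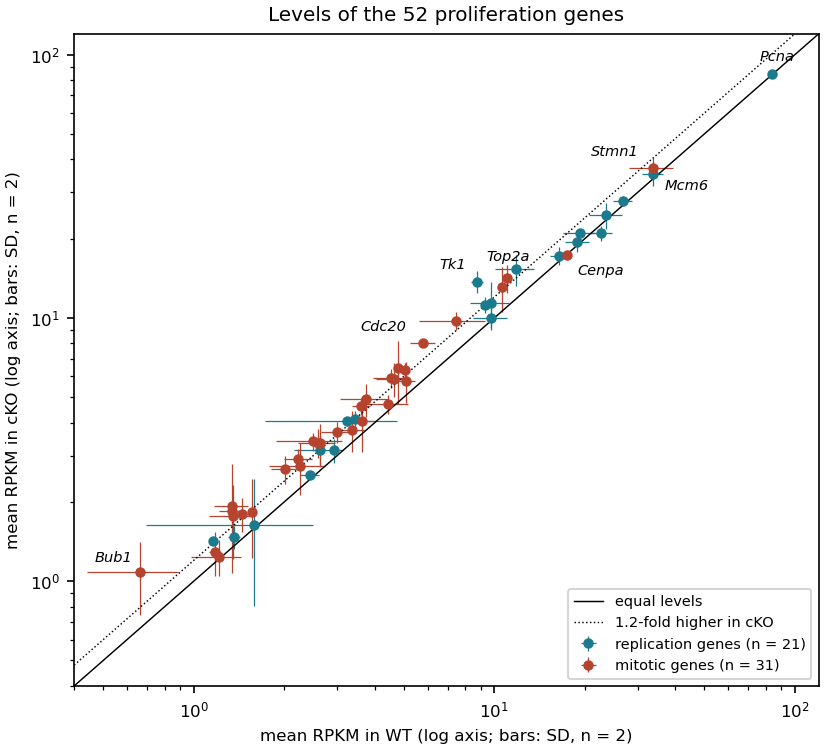
Mean RPKM in cKO (vertical log axis) against mean RPKM in WT (horizontal log axis) for the 52 genes, with SD bars (n = 2 each), a solid line of equal levels and a dotted line 1.2-fold above it. Tk1 lies above the dotted line at 13.7 RPKM in cKO and 8.78 RPKM in WT, and Pcna on the solid line.

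Summing over genes showed the same difference between phases and between libraries. The summed level of the 31 mitotic genes was 179 and 195 RPKM in cKO against 164 and 148 RPKM in WT, and that of the 21 replication genes 331 and 338 RPKM in cKO against 315 and 312 RPKM in WT. A score per library, the median over the genes tested of log2(RPKM + 1) after centring each gene on the 4 libraries, was 0.03 and 0.21 for mitotic genes in cKO against -0.07 and -0.16 in WT. For replication genes it was 0.03 and 0.10 in cKO against -0.04 and -0.09 in WT. The mitotic score minus the replication score was thus 0.00 and 0.11 in cKO against -0.04 and -0.07 in WT, so cKO replicate 1 differed little between the phases. Between libraries of replicate number 1 the median log2 difference, cKO minus WT, was 0.10 for mitotic and 0.05 for replication genes, and between those of number 2 it was 0.34 and 0.17. A difference above 0 in both numbers was seen for 23 of 30 mitotic genes and 13 of 21 replication genes, against 38.1% of all genes tested. The highest of the 4 values lay in cKO replicate 2 for 24 of 30 mitotic genes (80%), against 31.8% of all genes. Mitotic genes also had lower levels, with a median of 3.56 RPKM against 10.6 RPKM for replication genes, and with a pseudocount of 0.1 the medians were 0.33 and 0.10.

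**Figure D5:**
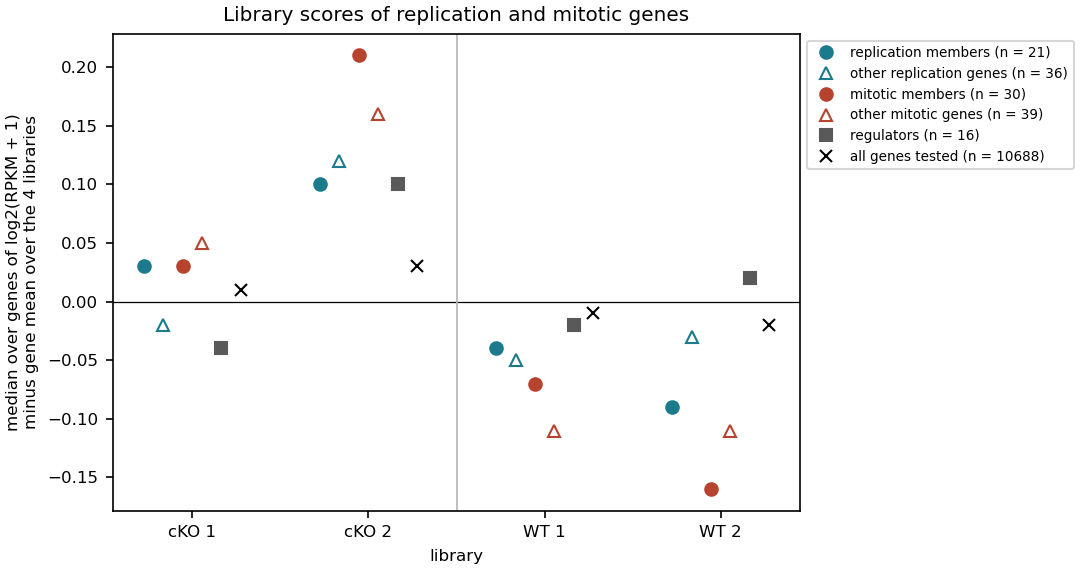
Median over genes of log2(RPKM + 1) minus the gene's mean over the 4 libraries, in each library, for the 2 sets of proliferation genes (filled circles), other genes of the same pathways (open triangles), regulators and all genes tested. For both sets the cKO scores lie above 0 and the WT scores below it, and cKO replicate 2 stands highest for mitotic genes at 0.21.

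An estimated 33 to 3177 reads per library lay behind each member, and 11 members had under 100 reads in some library, among them Birc5 and Spc24. The spread within groups, which includes the counting error, was above that error for 41 of 52 members, with a median coefficient of variation of 11.8%. Exons of 16 members overlap those of another gene, and 5 members (Ccnb1, Ccnb2, Pcna, Stmn1 and Tyms) have named pseudogenes or related sequences, so their values are uncertain.

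Genes of the same pathways outside the 52 gave a like order. Among 36 other replication genes tested, 27 lay above 0 and 13 (36.1%) were separated with cKO above, against 59.2% and 17.4% of all genes tested; the median log2 fold change was 0.10. Without cKO replicate 2 this median was 0.05, with 21 of 36 above 0, and without cKO replicate 1 it was 0.16. The most abundant were Rpa1, which coats single-stranded DNA, at 39.5 and 39.2 RPKM in cKO against 35.9 and 33.5 RPKM in WT, and Rfc2, a clamp loader subunit, at 25.8 and 24.5 RPKM in cKO against 24.9 and 24.4 RPKM in WT. Among 39 other mitotic genes tested, 36 lay above 0 and 21 (53.8%) were separated with cKO above, beside the same 59.2% and 17.4% of all genes; the median was 0.19, or 0.14 without cKO replicate 2. The most abundant of these did not follow genotype: Smc4, of condensin, had 124 and 196 RPKM in cKO against 139 and 207 RPKM in WT, with both replicate 2 libraries high. Lmnb1, a lamin of the nuclear envelope, had 33.0 and 28.9 RPKM in cKO against 28.4 and 27.1 RPKM in WT. Cdca3, a mitotic entry factor chosen after its values were seen, had 5.17 and 5.40 RPKM in cKO against 3.24 and 3.19 RPKM in WT (log2 fold change 0.58; limma, unadjusted p = 0.00573). No gene of either list passed the adjusted test, and none had both cKO libraries below both WT libraries.

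Transcripts of the regulators of both sets were counted likewise. Of 16 genes tested for E2F, retinoblastoma, DREAM and FoxM1 components, 9 lay above 0, 2 were separated with cKO above and 1 with cKO below, near the shares over all genes (59.2%, 17.4% and 9.06%). Their median log2 fold change was 0.03, as over all genes, and -0.03 to 0.07 with 1 library left out. The most abundant were E2f4, the main E2F of DREAM, at 50.8 and 41.9 RPKM in cKO against 49.7 and 45.4 RPKM in WT, and Rbl2, its pocket protein p130, at 30.7 and 35.3 RPKM in cKO against 30.0 and 29.4 RPKM in WT. Foxm1 had 3.53 and 3.17 RPKM in cKO against 3.53 and 2.78 RPKM in WT, and Mybl2, which encodes B-Myb, had 2.92 and 2.53 RPKM in cKO against 2.63 and 2.12 RPKM in WT, both with overlapping groups.

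Markers of other spleen cells, some of which cycle, differed between libraries too. Of the 9 B cell and germinal centre genes analysed, 5 were tested, 4 of them above 0, with a median of 0.23 (0.15 without WT replicate 2 or without cKO replicate 2). Of the 5 tested, 3 were separated with cKO above and 1 with cKO below, against 17.4% and 9.06% of all genes tested. The summed level of the 9 genes was 292 and 262 RPKM in cKO against 310 and 221 RPKM in WT, mostly Ighm. Cd79b, part of the B cell receptor, was at 8.03 and 7.14 RPKM in cKO against 5.56 and 4.23 RPKM in WT (log2 fold change 0.55). Bcl6, the germinal centre factor that T cells also express, had the opposite order, at 8.25 and 7.54 RPKM in cKO against 10.1 and 9.71 RPKM in WT (log2 fold change -0.30; limma, unadjusted p = 0.0612). Both were chosen after their values were seen. Fcer2a was listed at 0 in WT replicate 1. Summed myeloid markers were at 28.3 and 9.56 RPKM in cKO against 10.7 and 15.4 RPKM in WT, with 5 of 6 tested above 0, but 0 of 6 without cKO replicate 1 (median -0.24) and 3 of 6 without WT replicate 1. Summed erythroid markers were at 53.8 and 17.8 RPKM in cKO against 32.8 and 20.0 RPKM in WT, with 6 of 6 above 0 (4 with median-of-ratios scaling), but 1 of 6 without cKO replicate 1 (median -0.61) and 2 of 6 without WT replicate 2 (median -0.20). Both of these sums were highest in cKO replicate 1, and that of the mitotic genes in cKO replicate 2. Markers of CD8 T and NK cells summed to 27.3 and 32.8 RPKM in cKO against 28.3 and 21.4 RPKM in WT. Their sum was also highest in cKO replicate 2. Of these markers 3 of 4 tested were above 0, but 2 of 4 without WT replicate 2 (median 0.01). The 8 Treg and T cell markers had 4 above 0. Separated with cKO above were 1 of 6 erythroid, 1 of 4 CD8 T and NK, 0 of 6 myeloid and 0 of 8 Treg and T cell markers tested. Against these marker counts, 59.2% of all genes tested lay above 0. The part of these other cells in the result was not tested.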

How the data were processed

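RNA-seq of Treg cells gave 4 libraries, 2 cKO and 2 WT, single-end reads of 50 nt from pooled RNA per the labels' protocols. The authors deposited RPKM values per RefSeq transcript, with no header naming the unit; the range and steps of the values gave it. The authors' tools HISAT2 and DESeq2 and the build mm10 are named, per the submitters' processing notes, without version or role. The sources used here do not give the counting tool, any row filter or the use of strand.

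The 19291 transcript rows were assigned to genes, 16717 by accession and 1405 by name, and 1169 rows without a gene (10.9% of the RPKM) were left out. Per gene the row of highest mean was kept. Depth was estimated from GENCODE transcript lengths: of values between 0.5 and 8 reads, 55.9% to 59.0% were whole reads to within 0.05, against 10% by chance. limma 3.58.1 in R 4.3.3, with trend and robust moderation, was fitted on log2(RPKM + 1) with genotype alone, two-sided, and tested on simulated data. With a difference by replicate number taken from these data, the fit recovered 0% of simulated 1.5-fold changes and 35.2% of 2-fold changes. Without such a difference it recovered 25.4% and 81.2%. A fit with replicate number as a block, run as an alternative, recovered 51.3% and 91.9% with such a difference, with a mean of 6.8 false calls. The lack of calls therefore says little about changes of the size seen in most members. Calls needed an adjusted p under 0.05 over the 10688 genes whose mean reached 1 RPKM. The fold is the ratio of mean RPKM, and gene coordinates are those of GENCODE on GRCm38.

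The members and gene lists were chosen with earlier results of these data known. Named members were Mki67, Top2a, Pcna, Cdk1 and, in each of 11 role groups, the most abundant and the one of lowest unadjusted p; others are cited where a role group is described. Alternatives were a pseudocount of 0.1, no filter, median-of-ratios scaling, summed transcript rows, no trend or robust moderation, a replicate block and each library left out. Some B cell markers are not reported here.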

Additional observations from a re-analysis of the deposited data

How the results depend on the processing

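Of 300 values recomputed over 10 alternatives, 271 were counted as unchanged. For named members this required only the same sign and the same call, whatever the size. For counts and medians it allowed a change within a set limit. No member passed the adjusted test under any alternative run (limma, lowest adjusted p of a named member 0.0957, Tk1 with the replicate block). The number of genes called over all genes, 0 as reported (332 at an unadjusted p under 0.05), was 1 with the replicate block (Cxcr4) and 21 to 66 with one library left out (21 and 60 on omitting cKO 1 or cKO 2, 66 and 38 on omitting WT 1 or WT 2), where the lone library is assumed to vary like the others. Same-numbered libraries deviated together (correlation 0.51 over 10688 genes), but the labels do not say that the numbers mark a shared batch; the block changed no other call. With one library left out, the replication median was 0.09 to 0.16, the mitotic median 0.15 (without cKO replicate 2) to 0.35, and their difference 0.06 to 0.19. The replication genes with both cKO above both WT were 8 to 13, and the mitotic ones 21 to 27, when 32.5% to 40.4% of all genes had that order. With median-of-ratios scaling the medians were 0.04 and 0.24, the median of all genes was -0.01 and Pcna was at -0.03. With one library left out, signs turned for these named members: Mcm6 ranged from -0.04 to 0.17, Cdt1 from -0.02 to 0.14, Gins2 from -0.07 to 0.67, Pcna from -0.03 to 0.04, Cdk1 from -0.09 to 0.35 and Stmn1 from -0.03 to 0.31. Cenpa, at -0.00 as reported, ranged from -0.03 to 0.03; the cause was not tested. Depth limits genes under about 1 RPKM.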
